A study of Mus musculus with 23 samples.

Results

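The transcriptome of crushed mouse sciatic nerves (SNs) was compared with that of contralateral SNs at 3 days post crush (3 dpc). The members are the 8 libraries whose labels name a crush-injured nerve or a contralateral nerve of wild-type C57bl6 mice, 4 in each group, out of 23 libraries in the series. The mice were 2-month-old males that all received the surgery and buprenorphine analgesia, so the contralateral SNs come from operated animals and not from naive ones. The nerve of one side was crushed with forceps at the sciatic notch, and the piece taken lies distal to the crush. Each library holds the RNA of a whole piece of nerve, with its Schwann cells (SCs), axons, fibroblasts, vessels and immune cells together. Per the study's methods, the contralateral nerve of operated mice was harvested in parallel, so both groups can hold nerves of the same mice. The labels do not say whether a crushed and a contralateral library with the same number come from the same mouse. The main tests and the permutation tests therefore treated the 8 libraries as independent, which they may not be. The p-values measure the spread between the 4 samples of a group and not that between nerves of a mouse. 3 uncrushed surgery-control SNs served as a second control and entered no test of the crushed SNs, apart from an alternative fit of all 11 wild-type libraries.

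A peripheral axon cut off from its cell body breaks down, and the SCs that wrapped it leave the myelinating state. They stop making myelin, divide, and take on a repair state that depends on the transcription factor Jun, in which they secrete trophic factors and chemokines. Monocytes enter from the blood and, with the SCs, clear the myelin debris. Since whole nerves were sequenced, fewer cells of a type and less RNA per cell cannot be told apart.

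The 8 libraries held between 9512316 and 12806066 counts, so that 3 counts correspond to between 0.234 and 0.315 counts scaled by library size (CPM). The first principal component of log2 CPM carried 84.5% of the variance and separated all 4 crushed from all 4 contralateral SNs. Of 16667 genes tested, 2437 were higher in crushed SNs (14.6%) and 2274 were lower (13.6%), called at a fold of at least 2 and an adjusted p of at most 0.05, so that 28.3% of all genes were called. For 59.8% of all genes the 4 values of one group all lay above those of the other. A count in a gene list below is to be read against these shares. Gm42418, Lars2 and Gm26917, genes that take up rRNA-like reads, took between 2.55% and 2.87% of counts in contralateral and between 7.26% and 8.05% in crushed SNs. With these and the mitochondrial genes left out of the totals, 2 of the 43 gene lists described below, those of pericytes and of red cells, no longer had shares of counts that were apart between the groups (exact permutation p = 0.114 and 0.0571), and the other 41 were called as before.

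Large changes were more frequent upwards. 960 genes were at least 4-fold higher and 779 at least 4-fold lower, and 72 were at least 32-fold higher against 45 that were at least 32-fold lower. Protein-coding genes split into 2256 higher and 1884 lower of 13935 tested. Long noncoding RNA genes (lincRNA, antisense and related classes) split the other way, with 51 higher and 207 lower of 1116 tested and their median log2 fold change was -0.54, that of protein-coding genes 0.03.

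**Figure D1:**
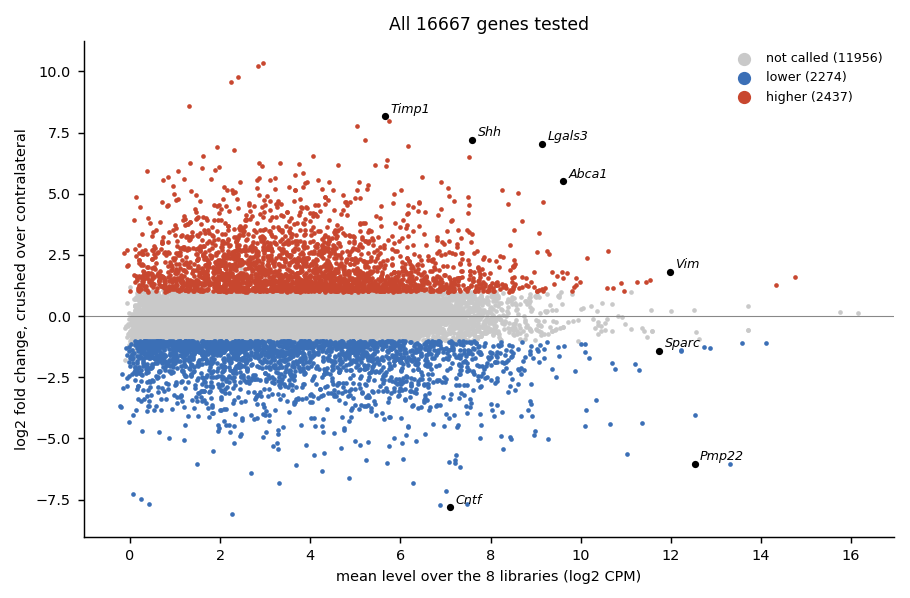
Mean level over the 8 libraries (x axis, log2 CPM) against the log2 fold change of crushed over contralateral SNs (y axis) for the 16667 genes tested, with the 2437 genes called higher in red, the 2274 called lower in blue and the rest in grey. Pmp22 falls by 6.03 on the log2 scale at the right of the plot, among the highest mean levels, and Timp1, Shh and Lgals3 lie above 7 on the y axis.

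**Figure D2:**
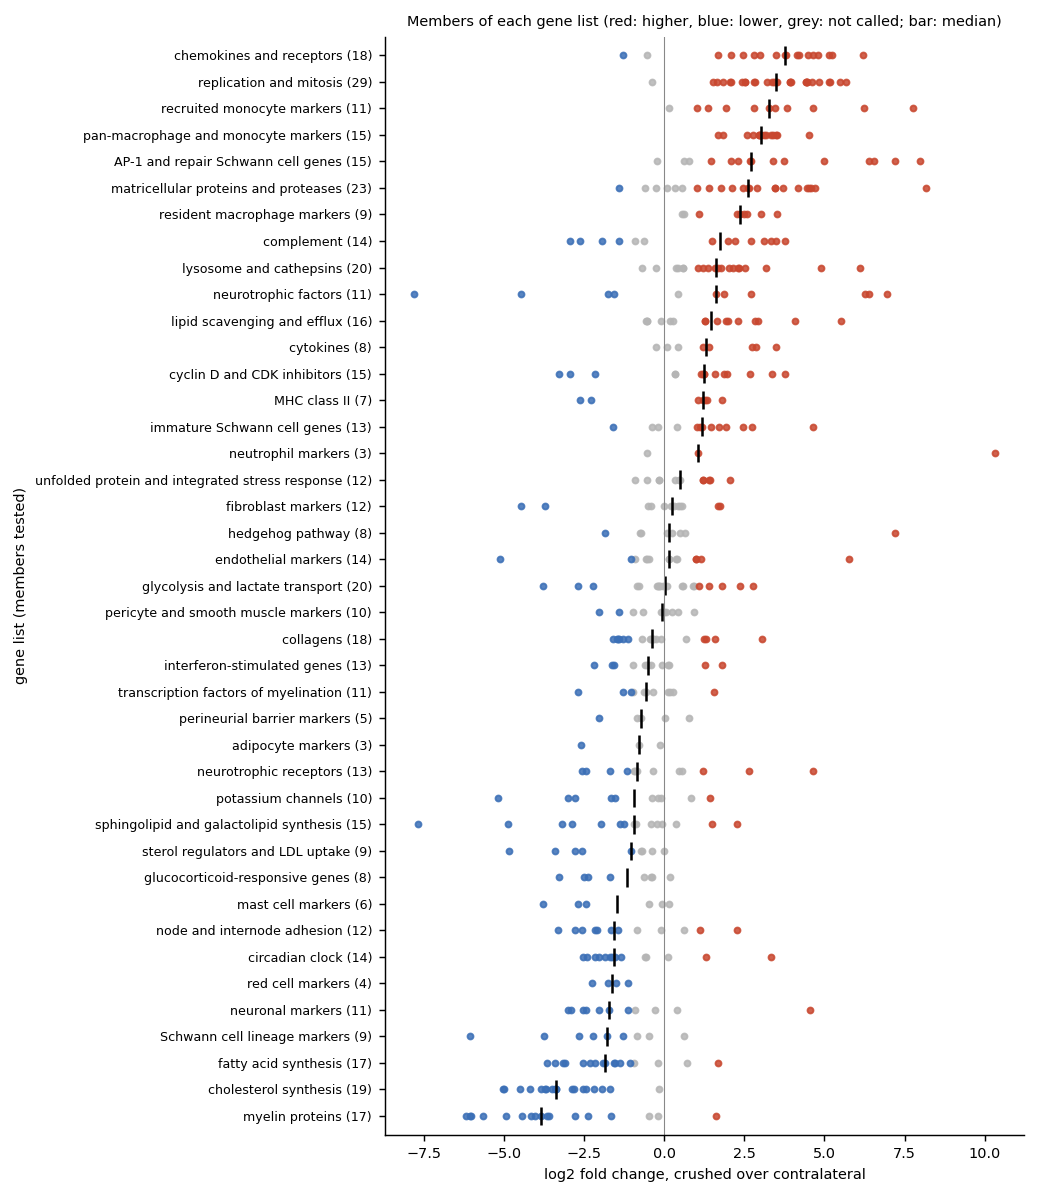
Log2 fold change of crushed over contralateral SNs (x axis) for every tested member of each gene list drawn (y axis, with the number tested), with members called higher in red, lower in blue and others in grey, and a bar at the list's median. The lists of lymphocyte and of skeletal muscle markers, with 2 and 1 members tested, are not drawn. The myelin list has its median at -3.83 and cholesterol synthesis at -3.38, chemokines stand at 3.78 and division genes at 3.49, and the lists of vessel and fibroblast markers lie near 0.

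The genes of compact myelin fell the most of all lists. Of 17 myelin protein genes 14 were lower and 1 was higher, and their median log2 fold change was -3.83 where that of all genes tested was -0.06. Pmp22, the tetraspan myelin protein whose dosage is altered in hereditary neuropathy, was at 10351, 14178, 11936 and 10149 CPM in the 4 contralateral SNs and at 230, 177, 155 and 150 CPM in the 4 crushed SNs. The lowest contralateral value was far above the highest crushed value, and the log2 fold change was -6.03 ± 0.18 (SE; adjusted p = 2.5e-12, edgeR quasi-likelihood test). Ncmap, a small membrane protein of noncompact myelin, had the largest fall of the list (-6.18 ± 0.15). Mbp, the cytoplasmic protein that compacts the membranes, fell by 4.03 on the log2 scale and kept between 605 and 833 CPM.

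In the order of protein-coding genes by level per transcript length (TPM), Pmp22 moved from rank 5 in contralateral to rank 483 in crushed SNs and Mbp from rank 7 to rank 123. Together the 17 genes took 5.65% ± 0.681 of all counts in contralateral and 0.421% ± 0.0605 in crushed SNs (SD, n = 4 each; exact permutation test, two-sided, p = 0.0286, adjusted p = 0.0351, the smallest that 4 against 4 samples allow). Gjb1 and Dag1 did not follow the list. Gjb1, the gap junction protein connexin 32, rose from between 39.7 and 57.4 CPM to between 115 and 199 CPM (1.61 ± 0.17, adjusted p = 7.5e-07). Dag1, which codes for dystroglycan, had overlapping values (-0.18 ± 0.12, adjusted p = 0.18).

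**Figure D3:**
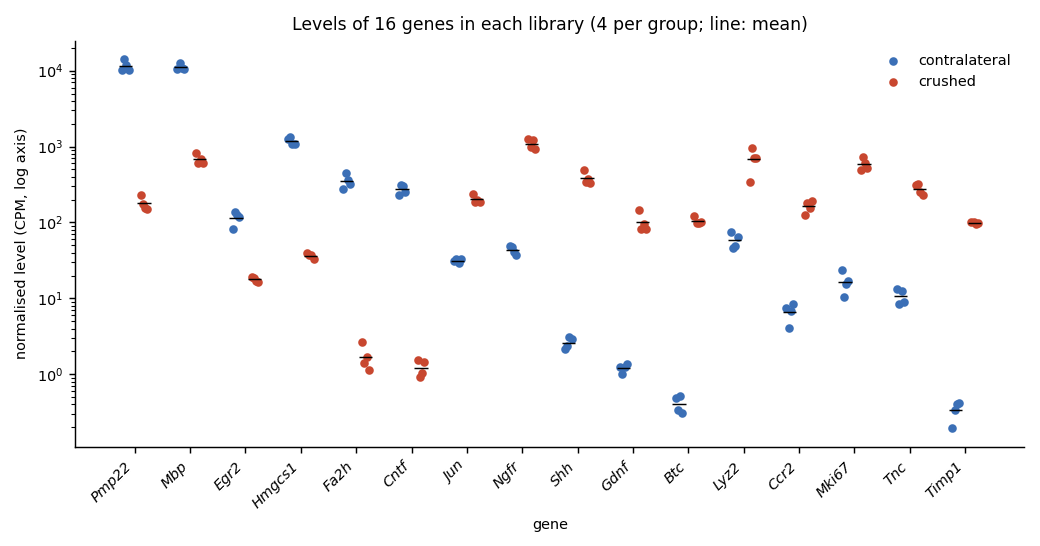
Normalised level (CPM, log axis) of 16 genes in each of the 4 contralateral (blue) and 4 crushed (red) libraries, with a line at each group's mean. The 6 genes at the left are lower and the 10 genes at the right higher in crushed SNs, and in none of them do the 2 groups overlap.

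Among 9 SC lineage markers, 6 were lower and none was higher. S100b, a calcium-binding protein of SCs, fell from between 457 and 546 CPM to between 72.1 and 83.7 CPM. Sox10, the factor that defines the lineage, fell less, from between 249 and 330 CPM to between 100.3 and 141 CPM (-1.29 ± 0.12). The adhesion protein Cdh19 was at 319 to 371 CPM in contralateral and at 491 to 556 CPM in crushed SNs (0.63 ± 0.08), below the limit of 2-fold.

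Of the 11 transcription factors tied to myelination, 3 were lower and 1 was higher. Egr2, which drives the myelin genes, was at 81.8, 137, 126 and 117 CPM in contralateral and at 19.0, 18.6, 16.9 and 16.5 CPM in crushed SNs. The groups were apart by 2.69 ± 0.14 on the log2 scale. Pou3f1, the factor of the promyelinating stage that precedes Egr2, rose by 1.55 ± 0.13, from between 12.9 and 17.7 CPM to between 38.1 and 54.5 CPM. Tead1, Yap1 and Wwtr1 of the Hippo pathway stayed within 2-fold.

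Of 12 genes for the node and for adhesion along the internode, 7 were lower and 2 were higher. Cadm2, Cadm3 and Cadm4, adhesion proteins of the internode, fell by 3.30, 2.55 and 2.11 on the log2 scale. Their relative Cadm1 rose by 1.11 ± 0.11. Nrcam, a cell adhesion molecule of the node, rose from between 76.0 and 100.1 CPM to between 376 and 482 CPM. Gldn, the SC ligand that clusters sodium channels at the node, had overlapping values (-0.10 ± 0.12, adjusted p = 0.47).

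Lipid synthesis fell together with the myelin proteins. 18 of the 19 genes of cholesterol synthesis were lower and none was higher, with a median log2 fold change of -3.38. Hmgcs1, an early enzyme of the pathway, was at 1259, 1337, 1096 and 1079 CPM in contralateral and at 39.1, 36.8, 37.2 and 33.1 CPM in crushed SNs. That is a log2 fold change of -5.03 ± 0.11 (adjusted p = 3.2e-13), with no overlap. Idi1, an isomerase of the isoprenoid steps, fell by 4.50 ± 0.11. The exception was Ebp, a sterol isomerase, with values from 15.3 to 22.1 CPM in contralateral and from 13.4 to 17.9 CPM in crushed SNs. The list took 0.362% ± 0.0406 of counts in contralateral and 0.0288% ± 0.00223 in crushed SNs (SD, n = 4 each; exact permutation p = 0.0286).

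Of 9 genes that sense or import sterols, 5 fell and none rose. Insig1, the sterol sensor partner, fell by 3.41 ± 0.13 and Srebf2, the transcription factor of the pathway, by 2.57 ± 0.11. Srebf1 was lower by 0.72 ± 0.10, below the limit. The sterol response element to which such factors bind, searched as TCACNCCAC on both strands in the 250 bases before the RefSeq starts (build GRCm38.p6), was found for 1 of the 14 members of the cholesterol list that have a promoter in the table used, and for 1.29% of 11351 genes tested. That member is Hmgcs1, and its stretch is shown with the element in capitals. It lies at chr13:119690198-119690238 on the plus strand, 137 bases before the start.

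Hmgcs1: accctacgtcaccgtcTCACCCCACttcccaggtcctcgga

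Of 17 genes for fatty acid synthesis 13 were lower and 1 was higher. Elovl6 fell by 3.64 ± 0.13, Acss2 by 3.14 ± 0.12 and Fasn, the fatty acid synthase, by 2.52 ± 0.13. Acsl4, which activates arachidonic acid, rose by 1.69 ± 0.13. Of 15 genes for sphingolipids and galactolipids, 7 were lower and 2 were higher. Fa2h, which hydroxylates the fatty acid of myelin galactolipids, was at 278, 451, 364 and 316 CPM in contralateral and at 2.62, 1.4, 1.69 and 1.13 CPM in crushed SNs. This was among the largest falls of any protein-coding gene (-7.66 ± 0.21). Ugt8a, the galactosyltransferase of the same pathway, fell by 4.88 ± 0.11. Cers6 and Ugcg, which make ceramide with shorter chains and glucosylceramide, rose by 2.27 ± 0.15 and 1.5 ± 0.15.

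The genes that take up, store or export lipid moved the other way. Of 16 genes for scavenging and efflux, 10 were higher and none was lower. Abca1, the cholesterol exporter, was at 35.5, 35.2, 33.8 and 29.3 CPM in contralateral and at 1507, 1616, 1611 and 1368 CPM in crushed SNs. Its log2 fold change was 5.51 ± 0.11 (adjusted p = 2e-13). Soat1, which esterifies cholesterol for storage, rose by 2.92 ± 0.10 and the scavenger receptor Msr1 by 4.08 ± 0.28. Abcg1, a second exporter, was within the spread (0.19 ± 0.12, adjusted p = 0.18). Of 20 lysosomal genes 14 were higher and none was lower. The proton pump subunit Atp6v0d2 rose by 6.11 ± 0.15 and the cathepsins Ctss by 4.89 ± 0.33 and Ctsb by 2.54 ± 0.16, while the membrane protein Lamp1 overlapped between groups.

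The immature and repair genes of SCs were mostly higher. Of 13 genes of immature SCs 9 rose and 1 fell. Ngfr, the neurotrophin receptor p75, was at 49.0, 47.0, 40.6 and 36.9 CPM in contralateral and at 1266, 976, 1211 and 934 CPM in crushed SNs. The groups were 4.66 ± 0.14 apart on the log2 scale. Sox2, which holds SCs in the immature state, rose by 2.73 ± 0.16. Cdh2, N-cadherin, fell by 1.60 ± 0.12, and Ncam1 and L1cam, the adhesion proteins of nonmyelinating SCs, overlapped between groups.

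Of 15 AP-1 and repair genes tested 12 were higher and none was lower, with a median log2 fold change of 2.70. Jun was at 31.1, 32.5, 28.9 and 32.9 CPM in contralateral and at 235, 186, 196 and 187 CPM in crushed SNs. Its partners did not move alike. Fosl1 rose by 6.53 ± 0.22, Atf3 by 3.74 ± 0.12, Fos by 3.39 ± 0.12 and Junb by 2.07 ± 0.13, while Jund was at 37.6 to 47.2 CPM in contralateral and at 35 to 37.4 CPM in crushed SNs (-0.21 ± 0.09). Runx2 rose by 4.99 ± 0.14 and Runx1 by 2.70 ± 0.15. Btc, a ligand of the EGF receptor family, was at 0.485, 0.335, 0.511 and 0.311 CPM in contralateral and at 122, 97.9, 99.4 and 103 CPM in crushed SNs, a log2 fold change of 7.97 ± 0.16. The AP-1 site, searched as TGANTCA in the same promoter windows, was found for 0 of the 13 members with a promoter in the table and for 5.82% of all genes.

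The trophic factors split in both directions, with 6 higher and 4 lower of 11 tested. Gdnf, a survival factor of motor neurons, was at 1.26, 1.01, 1.23 and 1.35 CPM in contralateral and at 145, 83.1, 96.4 and 81.3 CPM in crushed SNs. Clcf1, a ligand of the ciliary neurotrophic factor receptor, rose by 6.96 ± 0.28, from between 0.818 and 1.51 CPM to between 111 and 210.4 CPM. Cntf, ciliary neurotrophic factor itself, moved in the opposite direction, from 233, 314, 299.6 and 254 CPM to 1.52, 0.907, 1.03 and 1.43 CPM. Fgf1 fell by 4.46 ± 0.10, Igf2 by 1.74 ± 0.19 and Fgf2 by 1.57 ± 0.10, while Igf1 rose by 1.86 ± 0.23 and Hgf by 1.62 ± 0.31. Bdnf had between 6 and 14 counts in every library of both groups and was not tested, as were 9 other factors with low counts, Ntf3 and Il6 among them.

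Of 13 trophic receptors 3 rose and 4 fell. Beside Ngfr, the Gdnf coreceptor Gfra1 rose from between 157 and 172 CPM to between 937 and 1141 CPM and the shared signal subunit Il6st by 1.20 ± 0.07. Ret, the signalling partner of Gfra1, fell by 1.14 ± 0.23, a value that came to -0.98 without contralateral replicate 1, and Cntfr by 1.68 ± 0.26. The neuregulin receptors Erbb2 and Erbb3 were below the limit (-0.33 ± 0.13 and -0.85 ± 0.10). In the hedgehog pathway the ligands moved apart. Shh was at 2.13, 2.35, 3.07 and 2.91 CPM in contralateral and at 492, 340, 368 and 333 CPM in crushed SNs, and Dhh, the ligand of myelinating SCs, fell by 1.83 ± 0.12. None of the 6 receptors and Gli factors tested was called. Ptch1, a receptor and target, was at 52.2 to 77.7 CPM in contralateral and at 78.9 to 109 CPM in crushed SNs (0.67 ± 0.12), and Gli1 overlapped (0.08 ± 0.13, adjusted p = 0.6).

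Cell division genes rose almost without exception. Of 29 genes for replication and mitosis, 28 were higher and none was lower, with a median log2 fold change of 3.49. Mki67, the proliferation marker Ki-67, was at 23.7, 10.5, 15.3 and 16.7 CPM in contralateral and at 497, 728, 609 and 527 CPM in crushed SNs. Top2a, the topoisomerase of mitosis, rose by 5.47 ± 0.14 and Ccnb2, a mitotic cyclin, by 5.66 ± 0.21. Tyms, thymidylate synthase, was the exception and overlapped between groups (144 to 206 CPM and 113 to 173 CPM). The list took 0.0322% ± 0.00342 of counts in contralateral and 0.195% ± 0.0245 in crushed SNs (SD, n = 4 each; exact permutation p = 0.0286).

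Short elements that the list did not use were found for a larger part of these genes than of all genes. A CCAAT box, searched as CCAAT on both strands, lay within 250 bases before a start for 21 of the 25 members with a promoter in the table (84%) and for 40.2% of 11351 genes. The cell cycle homology region, searched as TTTGAA, was found for 7 of the 25 (28%) and for 13.2% of all genes. The stretches below come from called members of the list and carry the element in capitals, on the strand of the gene, with ATTGG as the reverse of the CCAAT box. They lie at chr10:69352972-69353008 (Cdk1, minus strand), chr10:69352962-69352999 (Cdk1, minus strand, the homology region), chr9:70421588-70421624 (Ccnb2, minus strand), chr11:99024247-99024283 (Top2a, minus strand), chr19:37376321-37376357 (Kif11, plus strand) and chr1:20820324-20820360 (Mcm3, minus strand).

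Cdk1, CCAAT box: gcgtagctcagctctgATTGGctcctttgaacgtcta
Cdk1, homology region: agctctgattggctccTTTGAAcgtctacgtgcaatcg
Ccnb2, CCAAT box: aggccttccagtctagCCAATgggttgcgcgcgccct
Top2a, CCAAT box: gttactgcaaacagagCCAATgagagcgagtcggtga
Kif11, CCAAT box: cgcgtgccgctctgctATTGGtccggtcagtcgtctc
Mcm3, CCAAT box: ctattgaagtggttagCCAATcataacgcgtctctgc

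These genes rose by 4.46 ± 0.18 (Cdk1), 4.83 ± 0.16 (Kif11) and 2.82 ± 0.13 (Mcm3) on the log2 scale, beside the values of Ccnb2 and Top2a above. The printed stretches of Cdk1 share bases, and their elements lie 80 and 71 bases before the start. A match describes the letters and not a bound site.

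The brakes of the cell cycle split by family. Of 15 cyclins of the G1 phase, their kinases and inhibitors, 10 were higher and 3 were lower. Ccnd1, cyclin D1, rose from between 52.8 and 62.6 CPM to between 318 and 386 CPM. The 3 that fell are the inhibitors of the Cip and Kip family. Cdkn1a, p21, was at 103, 128, 112 and 100.3 CPM in contralateral and at 14.4, 10.7, 10.2 and 10.3 CPM in crushed SNs, and Cdkn1b, p27, fell by 2.17 ± 0.11 and Cdkn1c, p57, by 2.92 ± 0.22. Among the INK4 inhibitors, Cdkn2a, Cdkn2b and Cdkn2c rose by 1.88 ± 0.40, 1.60 ± 0.17 and 1.97 ± 0.16, and Cdkn2d was not called (0.35 ± 0.16).

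Macrophage and monocyte genes rose in a block. All 15 tested markers shared by these cells were higher, with a median log2 fold change of 3.03. Lyz2, lysozyme, was at 75.2, 45.4, 49.2 and 64.1 CPM in contralateral and at 340.4, 959.7, 701 and 708 CPM in crushed SNs. Itgam, the integrin CD11b, rose by 4.53 ± 0.19 and Cd68, a lysosomal marker, by 3.32 ± 0.29. The list took 0.0145% ± 0.004 of counts in contralateral and 0.142% ± 0.0424 in crushed SNs (SD, n = 4 each; exact permutation p = 0.0286).

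Markers of recruited and of resident macrophages both rose. Of 11 markers of recruited monocytes 10 were higher. Spp1 and Thbs1 among them are also counted with the matricellular proteins below. The rise of Spp1 (1.03) came to 0.97 with upper-quartile normalization, below the limit of 2-fold. In contralateral SNs the list took 0.0708% of counts, more than the markers shared by these cells (0.0145%). Which cells hold this RNA was not tested. Ccr2, the receptor by which monocytes leave the blood, rose from between 4.11 and 8.30 CPM to between 124 and 192.9 CPM. Arg1, arginase, was at 33.9, 131, 43.2 and 49.7 CPM in crushed SNs and at most 0.511 CPM in contralateral SNs, and the second crushed replicate stood above the other 3. Chil3 had 2 counts in all 4 contralateral and 201 in all 4 crushed libraries, a ratio of 94.3 (95% exact interval 25.8 to 784, for counting error only). Ly6c2, which marks blood monocytes, overlapped between groups at 0.907 to 1.74 CPM (0.16 ± 0.29, adjusted p = 0.64). On the TPM scale of protein-coding genes Ly6c2 did not overlap, at 1.11 to 1.53 TPM in contralateral and 2.54 to 5.56 TPM in crushed SNs. Of 9 markers of resident macrophages 7 were higher, among them Fcrls by 3.53 ± 0.27, Cx3cr1 by 3.03 ± 0.25 and Mrc1 by 2.58 ± 0.21. Cd163, a scavenger of hemoglobin, was not called (0.56 ± 0.20).

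The 4 crushed libraries differed among themselves in these genes. Crushed replicate 1 had the lowest of the 4 values for all 15 macrophage markers, 17 of 20 lysosomal genes, 8 of 9 resident markers and 21 of 29 division genes, while over all genes tested it was lowest in 28.9%. It had the highest value for 16 of 17 myelin genes and 10 of 15 AP-1 and repair genes, against 29.2% of all genes. Its level of a macrophage marker was 0.605 times the mean of the other 3 (median of the list), and its level of a myelin gene 1.32 times. The same library held 31 counts of Adipoq, 58 of Cfd and 82 of Car3, genes of adipocytes, where the other 7 libraries held at most 2, 1 and 9. Among contralateral SNs, replicate 2 was highest for all 17 myelin genes and all 19 genes of cholesterol synthesis, against 41.2% of all genes, and lowest for 8 of 15 macrophage markers, against 22.7% of all genes. Contralateral replicate 1 was highest for 13 of the 15 macrophage markers, against 21.6% of all genes, at 1.63 times the mean of the other 3. The part of cell mixture or of the piece of nerve in this spread was not tested. For Apoe and Cd36 the spread brought crushed replicate 1 into the range of contralateral SNs, with 616 CPM of Apoe against 479.5 to 617 CPM and 10.8 CPM of Cd36 against 7.12 to 12.9 CPM.

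**Figure D4:**
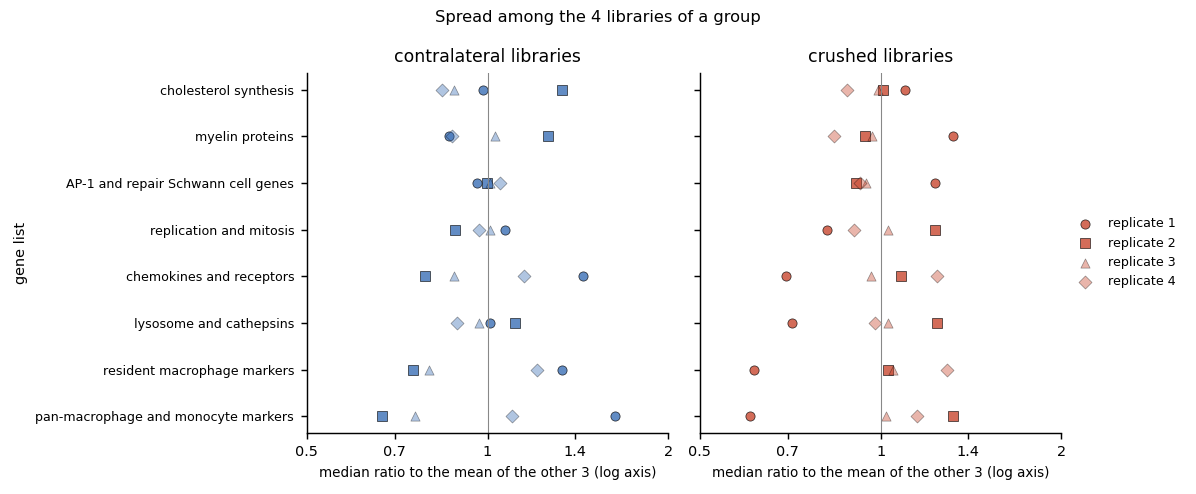
For 8 gene lists, the median over members of a library's level divided by the mean of the other 3 libraries of its group (x axis, log scale), for contralateral (left, blue) and crushed (right, red) libraries, with a marker shape for each replicate number. Crushed replicate 1 stands lowest for macrophage markers (0.605) and highest for myelin genes (1.32), and the labels do not say that a number marks one animal in both groups.

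The chemokine genes had the highest median log2 fold change of the immune lists, while by share of counts the macrophage markers changed more (9.8-fold against 6.09-fold). Of 18 chemokine genes tested 16 were higher and 1 was lower, with a median log2 fold change of 3.78. Ccl2, which attracts monocytes, was at 3.68, 0.670, 2.15 and 3.01 CPM in contralateral and at 55.6, 67.4, 62.5 and 75.9 CPM in crushed SNs. Cxcl14 rose by 6.19 ± 0.22, Ccl6 by 5.22 ± 0.26 and the receptor Ccr1 by 5.13 ± 0.26. Cxcl12, which retains leukocytes and guides progenitors through Cxcr4, fell by 1.28 ± 0.09 while Cxcr4 rose by 2.98 ± 0.50. 11 other chemokines had too few counts to be tested. Cxcl2 had at most 2 counts and Ccl5 at most 6 in any library.

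Of 8 cytokines 5 rose and none fell. Il1rn, which blocks interleukin 1, rose by 3.50 ± 0.22, Il1b by 2.86 ± 0.30, to between 2.77 and 3.79 CPM, and Tgfb1 by 2.73 ± 0.12. Tnf held at most 10 counts and Il6 at most 14 counts in any library. Of 13 interferon-stimulated genes 2 rose and 3 fell, with a median log2 fold change of -0.51. Ifit3 fell by 2.18 ± 0.12, while Oas1a rose by 1.82 ± 0.25.

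The MHC class II genes split by role. The chains that present peptide and their regulators rose, with Cd74 by 1.26 ± 0.15, H2-Ab1 by 1.33 ± 0.15 and the transactivator Ciita by 1.82 ± 0.21. H2-DMa, a chain of the protein that loads peptide, was at 65.2, 85.5, 76.7 and 63.1 CPM in contralateral and at 9.22, 11, 12.5 and 14.4 CPM in crushed SNs. Its partner H2-DMb1 fell by 2.28 ± 0.14, so that both chains of the loading protein went against the other 5 members.

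Complement split too, with 8 of 14 genes higher and 4 lower. The C1q chains rose by between 2.0 and 2.72 on the log2 scale, the receptors C3ar1 and C5ar1 by 3.50 ± 0.33 and 3.11 ± 0.21, and Cfp, properdin, by 3.32 ± 0.17. C3, the central component, fell from 134, 262, 198 and 175 CPM to 23.3, 30.7, 31.8 and 39.0 CPM. C4b fell by 1.95 ± 0.12 and Cd55, which shields cells from complement, by 2.92 ± 0.11. As a list, complement took 0.0628% ± 0.0052 of counts in contralateral and 0.0595% ± 0.0135 in crushed SNs (SD, n = 4 each; exact permutation p = 0.8), while on the TPM scale of protein-coding genes it took 0.056% and 0.084% (exact permutation p = 0.0857).

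Markers of other leukocytes were low. Of 12 neutrophil genes 3 could be tested, of which Retnlg and Csf3r were higher. Csf3r rose by 1.06 on the log2 scale, a value that came to 0.97 without crushed replicate 2. The list took 0.00301% ± 0.000464 of counts in contralateral and 0.00481% ± 0.000694 in crushed SNs (SD, exact permutation p = 0.0286). Retnlg, a resistin-like protein of neutrophils and monocytes, had 0 counts in every contralateral and between 112 and 227 counts in every crushed library, at least 48.3-fold higher against a floor of 3 counts per library. S100a8, S100a9 and Ly6g, which define neutrophils, had at most 8 counts in any library. Summed over the crushed against the contralateral libraries, they had 19 against 4, 19 against 6 and 5 against 6 counts. None of the 2 lymphocyte genes tested was called, and the list took 0.000752% ± 7.4e-05 of counts in contralateral and 0.000814% ± 0.000114 in crushed SNs. Of 6 mast cell genes tested, 3 proteases were lower, such as Mcpt4 (0.838 to 12.7 CPM in contralateral and 0 to 1.22 CPM in crushed SNs). For none of the 6 did the groups fail to overlap, and without contralateral replicate 1 the call of the mast cell protease Cpa3 was lost (log2 fold change -1.77, adjusted p = 0.0775 by edgeR), as it was with DESeq2 (adjusted p = 0.0697) and limma-voom (adjusted p = 0.0996).

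**Figure D5:**
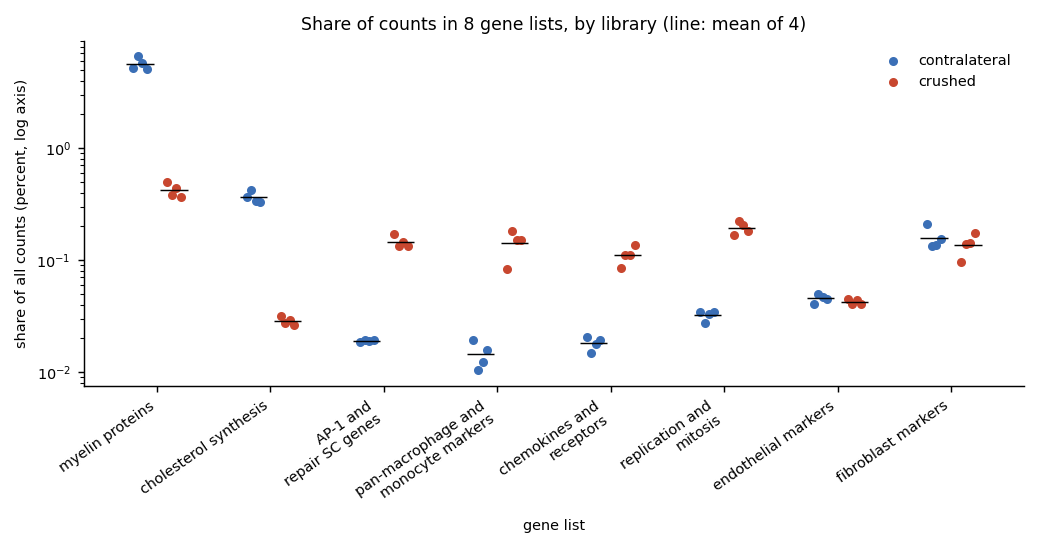
Share of all counts (percent, log axis) taken by 8 gene lists in each of the 4 contralateral (blue) and 4 crushed (red) libraries, with a line at the mean. Myelin proteins fall from a mean of 5.65% to 0.421% and cholesterol synthesis from 0.362% to 0.0288%, 4 lists rise, and the shares of endothelial and fibroblast markers overlap between the groups. On the TPM scale, which is not plotted, the endothelial shares were apart (exact permutation p = 0.0286).

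Among secreted matrix genes, the collagens changed in both directions. Of 18 collagen genes 4 rose and 6 fell, and their share of counts went from 0.853% ± 0.05 in contralateral to 0.668% ± 0.0292 in crushed SNs (SD, n = 4 each; exact permutation p = 0.0286). Col4a1 and Col4a2, of the basement membrane, fell by 1.28 ± 0.12 and 1.43 ± 0.12, and Col14a1 by 1.60 ± 0.10. Col8a1 rose by 3.04 ± 0.16 and Col18a1 by 1.60 ± 0.09. Col1a1 and Col3a1, the fibrillar collagens, were below the limit (-0.42 ± 0.09 and -0.35 ± 0.10).

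The matricellular proteins and proteases were mostly higher, with 17 of 23 higher and 1 lower. Timp1, the inhibitor of metalloproteinases, was at 0.194, 0.335, 0.409 and 0.415 CPM in contralateral and at 103, 99.9, 96.4 and 97.7 CPM in crushed SNs. The contralateral values stand for only 2 to 4 counts per library. Timp2 and Timp3 were below the limit (-0.59 ± 0.10 and 0.33 ± 0.10). Tnc, tenascin C, rose by 4.70 ± 0.16, Thbs2 by 4.57 ± 0.12 and Fn1, fibronectin, by 2.65 ± 0.14. Sparc, an abundant matricellular protein, fell from between 4590 and 5696 CPM to between 1838 and 1905 CPM. Mmp9 rose by 4.47 ± 0.29 and Mmp2 overlapped between groups (0.08 ± 0.15).

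Glycolysis changed by isoenzyme. Of 20 genes 5 rose and 3 fell, and the median log2 fold change was 0.02. Hk2 rose by 2.37 ± 0.14 while Hk1 overlapped between groups. The phosphofructokinase Pfkp rose by 1.80 ± 0.10 and its muscle form Pfkm fell by 2.23 ± 0.11. Ldha, lactate dehydrogenase A, was at 36.3 to 49.8 CPM in contralateral and at 87.4 to 105 CPM in crushed SNs, a log2 fold change that came to 0.98 without crushed replicate 2 and to 0.99 without contralateral replicate 4, and Ldhb went from between 192 and 256 CPM to between 31.2 and 36.6 CPM. Slc16a3, a lactate exporter, rose by 2.76 ± 0.37 to between 2.37 and 4.62 CPM.

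Of 12 genes of the unfolded protein and integrated stress responses 5 rose and none fell. The chaperones Hspa5 and Hsp90b1 rose by 2.06 ± 0.09 and 1.20 ± 0.09, while Ddit3 and Trib3, which mark a terminal response, overlapped between groups.

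The circadian clock genes moved in opposite directions by arm. Of 14 genes 9 were lower and 2 were higher. The activators Arntl and Npas2 rose by 1.30 ± 0.25 and 3.35 ± 0.24, and Clock, their partner, overlapped. Dbp, an output gene, was at 82.1, 94.0, 86.2 and 74.8 CPM in contralateral and at 16.8, 13.1, 18 and 16.2 CPM in crushed SNs. Per1, Per2 and Per3 fell by 1.68 ± 0.14, 1.62 ± 0.11 and 1.85 ± 0.09, and Cry2 by 2.16 ± 0.12. The time of day of collection is not given in the sources used here. The E-box CACGTG, to which the activators bind, was found before the start of 4 of 13 members with a promoter in the table (30.8%), namely Per1, Cry1, Tef and Ciart, and of 9.54% of all genes. 2 of them are shown with the element in capitals, at chr11:69098767-69098804 (Per1, plus strand, 166 bases before the start) and chr3:95882265-95882302 (Ciart, minus strand, where a second copy lies 14 bases further on).

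Per1: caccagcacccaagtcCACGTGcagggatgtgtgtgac
Ciart: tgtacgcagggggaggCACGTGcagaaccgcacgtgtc

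Glucocorticoid-responsive genes fell in 4 of 8 cases and rose in none, with Tsc22d3 at 155 to 252 CPM in contralateral and at 30 to 41.9 CPM in crushed SNs. 2 of the 4, Per1 and Cdkn1a, belong to other lists above, and Fkbp5 and Sgk1 overlapped between groups. Of 10 potassium channel genes 5 fell and 1 rose. Kcnk1 fell by 5.17 ± 0.14 and the Kcna2 channel of the juxtaparanode by 2.77 ± 0.09, while Kcnj10, an inward rectifier of glia, rose by 1.43 ± 0.17.

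Vessel and fibroblast markers had medians near 0, and 1 of 5 perineurial markers was lower. The median log2 fold change was 0.15 for 14 endothelial markers (4 higher, 2 lower), -0.05 for 10 of pericytes and smooth muscle (none higher, 2 lower), 0.26 for 12 of fibroblasts (2 higher, 2 lower) and -0.70 for 5 of the perineurial barrier (none higher, 1 lower). The perineurial list took 0.066% ± 0.00601 of counts in contralateral and 0.0297% ± 0.00135 in crushed SNs (SD, n = 4 each; exact permutation p = 0.0286). Its lower member was Itgb4, while Cldn1, Slc2a1, Tjp1 and Ocln were not called. The log2 fold changes of the list ran from -2.04 to 0.78. Single members moved strongly. Plvap, which forms the diaphragms of leaky capillaries, rose from between 0.102 and 0.830 CPM to between 20.9 and 27.5 CPM. Mfsd2a and Abcb1a, transporters of barrier endothelium, fell by 5.10 ± 0.17 and 1.04 ± 0.09. Pecam1, the general marker, was below the limit (0.41 ± 0.10). The fibroblast gene Mfap5 fell by 4.46 ± 0.15 and Pdgfra overlapped between groups (0.22 ± 0.15).

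Of 11 neuronal transcripts 7 fell and 1 rose. Nefl, Nefm and Nefh, the neurofilaments, fell by 2.51 ± 0.14, 2.42 ± 0.16 and 2.99 ± 0.12. Tubb3, a neuronal tubulin, was at 2.42, 2.35, 2.25 and 2.08 CPM in contralateral and at 59.2, 48.2, 57.7 and 49.4 CPM in crushed SNs, against the direction of its list. Hemoglobin genes were low in both groups, and 4 of 4 tested were lower in crushed SNs, of which Hbb-bs and Hbb-bt did not overlap between groups. Contralateral replicate 4 was highest for all 4. Without it Hba-a1 lost its call (log2 fold change -1.13, adjusted p = 0.0594 by edgeR), as it did with DESeq2 (adjusted p = 0.0514), and Hba-a2 came to -0.91. Hba-a2 was also below 2-fold without contralateral replicate 3 (-0.95) or crushed replicate 4 (-0.96). Hbb-bs was at 5.53 to 13.2 CPM in contralateral and at 1.54 to 4.78 CPM in crushed SNs. Skeletal muscle genes were near the floor. Acta1 had at most 3 counts in any library, and the 1 gene tested, Actn3, fell by 3.12 ± 0.40.

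Among the protein-coding genes with the largest folds, several belong to no list above. Hmga1 and Hmga2, chromatin proteins of embryonic and dividing cells, were at 2.71 to 4.69 CPM and at 3.02 to 3.88 CPM in contralateral SNs. In crushed SNs Hmga1 was at 323 to 411 CPM and Hmga2 at 147 to 199 CPM, so that they rose by 6.51 ± 0.14 and 5.66 ± 0.13 on the log2 scale. Lgals3, the galectin also called Mac-2, rose from 6.79, 8.38, 9.71 and 9.44 CPM to 1160, 1143, 1160 and 1036 CPM. It moved from rank 5472 to rank 30 of the protein-coding genes by TPM. Crabp2, which binds retinoic acid, rose by 7.21 ± 0.28, Gadd45a by 4.62 ± 0.10 and Cd44, the hyaluronan receptor, by 4.22 ± 0.10.

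Large falls outside the lists included those of Ddn, Fam178b, Slc36a2 and Sec14l5, with log2 fold changes of -7.72 ± 0.18, -7.13 ± 0.16, -6.80 ± 0.17 and -6.64 ± 0.20. Ddn, which codes for dendrin, went from 207 to 284 CPM in contralateral to 0.749 to 1.52 CPM in crushed SNs. Igflr1 had 393 counts in all 4 contralateral and 1 count in all 4 crushed libraries, a ratio of 419 (95% exact interval 74.7 to 16580, for counting error only). Dusp15, a phosphatase of myelinating glia, fell by 5.89 ± 0.13 and Mme, the peptidase neprilysin, by 3.97 ± 0.09. By level per length, Vim, the intermediate filament vimentin, had one of the largest rises, from 2972 to 12423 TPM in the mean, and passed from rank 27 to rank 5.

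The control group was itself compared with the 3 uncrushed SNs. Of 17722 genes tested in those 7 libraries 0 were called (0%) by the edgeR quasi-likelihood test at the same limits, and 3165 had an unadjusted p under 0.05. The edgeR exact test called 163 of these genes, and DESeq2 called 31 of 16002. Pmp22, with 11654 CPM ± 1863 in the mean of the contralateral SNs (SD, n = 4), differed from the uncrushed SNs by 0.19 on the log2 scale. Both comparisons share the contralateral libraries. Plin4, a lipid droplet protein, was the gene most often called by the alternatives. The list of adipocyte markers, to which Plin4 belongs, took 0.00161% of counts in contralateral and 0.00355% in uncrushed SNs, a difference that was not tested. In the other comparison, of crushed with contralateral SNs, Plin4 was at 7.37, 13.7, 13.8 and 15.3 CPM in contralateral and at 4.14, 1.32, 0.655 and 2.05 CPM in crushed SNs (-2.59 ± 0.36).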

How the data were processed

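Whole sciatic nerve RNA was sequenced per library, and the kit named in the labels keeps strand information. Per the labels, the authors trimmed reads with Trimmomatic and quantified transcripts with RSEM on Ensembl GRCm38, and the deposited expected counts per transcript are not normalized. STAR was the aligner per the study's methods. The deposited TPM values are RSEM estimates per transcript, in which a 5S rRNA gene takes a large part, so they were summed per gene and rescaled over protein-coding genes. The file of each library lists 105375 transcripts, and expected counts were summed to 43068 genes and rounded.

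Genes were tested with the edgeR quasi-likelihood test (edgeR 4.0.16, R 4.3.3) on the 8 libraries, after a minimum count of 10 (filterByExpr) and TMM scaling, with Benjamini-Hochberg adjustment. A gene was called at a fold of at least 2 and an adjusted p of at most 0.05. Every adjusted p of a gene comes from this test unless another tool is named, and values after ± are SE of the log2 fold change unless marked SD. This SE was taken as the absolute log2 fold change over the square root of the test's F statistic. It is therefore approximate, above all for large changes and for genes with few counts in a group. Shares of counts in 43 gene lists were compared by exact permutation tests adjusted over the lists. Alternatives used DESeq2 1.42.0 and limma 3.58.1, and each library was left out in turn. The code was tested on simulated data. Intervals and floors cover counting error only.

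Members and lists were chosen with earlier results of these data known. Named genes are, per list, the 3 with the highest level, the 3 with the largest called change and those called against their list, beside the 8 protein-coding genes at each extreme of fold, p and TPM change and a set of defining genes. A further 52 list members were named after their values were seen. Some members counted in the lists are not reported here by name. Promoters are from RefSeq, build GRCm38.p6, and cover the 250 bases before a start. The 12 libraries of the induced mutant experiment were not used here.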

Additional observations from a re-analysis of the deposited data

Results flagged for a closer look

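In a group of 4 libraries, a value was taken up here when its gap to the nearest of the others passed Dixon's 95% critical value. This held for 24 of the 496 groups of values looked at (201 genes, 43 lists and 4 measures of the libraries), and chance gives about 1 in 20. No explanation was tested. Contralateral replicate 1 stood apart for Abcb1a (57.58 CPM, the other 3 at 71.16 to 72.72 CPM), Cd68 (7.367 CPM, the other 3 at 4.192 to 4.691 CPM), Npas2 (1.163 CPM, the other 3 at 0.5112 to 0.6226 CPM) and Per1 (75.03 CPM, the other 3 at 114.9 to 123.1 CPM). Contralateral replicate 2 stood apart for Cdh2 (143.5 CPM, the other 3 at 100.7 to 107.8 CPM), Fgf1 (461.8 CPM, the other 3 at 409.1 to 415.5 CPM) and Mbp (12530 CPM, the other 3 at 10600 to 10870 CPM). Contralateral replicate 4 stood apart for Hgf (3.009 CPM, the other 3 at 1.551 to 1.676 CPM), Kcnj10 (6.018 CPM, the other 3 at 4.021 to 4.192 CPM) and Nefh (37.98 CPM, the other 3 at 30.92 to 31.49 CPM). Crushed replicate 1 stood apart for Cdkn1a (14.37 CPM, the other 3 at 10.21 to 10.72 CPM), Fam178b (2.706 CPM, the other 3 at 1.484 to 1.537 CPM), Ptch1 (78.89 CPM, the other 3 at 105.8 to 108.7 CPM), the share of matricellular proteins and proteases (0.8587%, the other 3 at 0.9998 to 1.028%) and the share of adipocyte markers (0.002479%, the other 3 at 0.0003231 to 0.0005467%). Crushed replicate 2 stood apart for Arg1 (130.6 CPM, the other 3 at 33.91 to 49.7 CPM), Cxcl12 (24.23 CPM, the other 3 at 26.3 to 26.54 CPM), Igflr1 (0.08243 CPM, a single count, the other 3 at 0 CPM) and Per2 (12.28 CPM, the other 3 at 14.46 to 14.55 CPM). Crushed replicate 3 stood apart for the share of circadian clock (0.03646%, the other 3 at 0.03481 to 0.03499%). Crushed replicate 4 stood apart for L1cam (53.49 CPM, the other 3 at 61.81 to 62.92 CPM), Lgals3 (1036 CPM, the other 3 at 1143 to 1160 CPM), Mfsd2a (1.332 CPM, the other 3 at 1.896 to 1.966 CPM) and the share of sphingolipid and galactolipid synthesis (0.04737%, the other 3 at 0.0509 to 0.05162%).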

How the results depend on the processing

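Over the other settings that left out no library, the count of genes higher in crushed SNs (2437) lay between 1695 and 3289. That of lower genes (2274) lay between 1484 and 2660, and no gene was called in opposite directions. The value of 2660 comes from a fit of all 11 wild-type libraries, which includes the uncrushed SNs. The lower count moved by over 1.5 times with glmTreat, which tests against a 2-fold change (1484). Leaving out 1 library gave 2282 to 2536 higher and 2302 to 2645 lower genes. Without the filter on low counts 58.2% of calls were higher, against 51.7%. Of 225 called genes that the rule or the text names, 215 kept their call in every setting that tested them, apart from glmTreat and left-out libraries. A setting whose filter removed a gene was passed over for that gene, as with at least 10 counts in every library. 8 lost their call without 1 library and 22 under glmTreat.

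The share of neuronal markers, which was not called (log2 ratio -0.08), turned to 0.29 on the scale of TPM of protein-coding genes (adjusted p = 0.0332, exact permutation test). On that scale the matricellular list was no longer apart (ratio 1.31 to 1.04, p from 0.0286 to 0.486, exact permutation test), and the endothelial and myelination factor lists were (p from 0.2 and 0.286 to 0.0286, exact permutation test). Without 1 library the number of lists whose shares passed the test was 0 to 0, since an exact permutation test of 3 against 4 samples cannot go below p = 0.0571, and 35 to 36 of 43 lists still did not overlap. Contralateral against uncrushed SNs gave 0 called genes with the edgeR quasi-likelihood test (3165 at an unadjusted p under 0.05), 141 with no filter, 6 with the replicate block, and, in tests chosen after seeing the data, 163 with the edgeR exact test and 31 with DESeq2. Leaving out 1 library gave 0 to 95. The cause was not tested.

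With the replicate block, crushed against contralateral SNs gave 2435 higher and 2283 lower genes, 4685 of them shared with the fit without it. Same-numbered libraries had correlations of -0.0942, 0.14, -0.0121 and 0.177 between their deviations from the group means. Crushed replicates 2 and 4 correlated best with their own number, and crushed replicates 1 and 3 did not. Libraries with different numbers had correlations from -0.246 to 0.133, so these values cannot tell whether the numbers mark pairs. Since the labels do not say so either, the numbers were not taken as pairs. At this depth, genes under about 10 counts were not tested.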

Other observations

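Pseudogenes split into 57 higher and 46 lower of 470 tested, and genes of the GENCODE class TEC into 29 higher and 76 lower of 694 tested, beside 28.3% of all genes called.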
